A study of Arabidopsis thaliana with 6 samples.

Results

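The 10 genes described here encode class I homeodomain-leucine zipper (HD-Zip) transcription factors of Arabidopsis thaliana, and their transcripts were followed in leaves of wild type and of the pub2pub4 double mutant. They were taken by identifier from the 33602 genes of the deposited expected-count table. The set was chosen by the rise of ATHB-7 in this same comparison, with relatives of ATHB-7 added by family. Calls come from a fit over all genes. For the 10 genes, fold changes and calls are therefore given as a description only, and nothing is read from them. The remaining 7 genes of the class were looked up beside them.

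The study compared 6 leaf libraries from plants 25 days old, grown in 16 h of light and 8 h of dark, 3 from wild type and 3 from pub2pub4, a mutant of the U-box ubiquitin ligase genes PUB2 and PUB4. Both groups carry the label mock, the labels name neither the mutant alleles nor the wild-type accession, and they do not say whether a replicate was 1 plant or a pool. Expected counts, the authors' estimates of reads per gene, summed to between 20506882 and 20732799 per library. PUB2 lay between 7.48 and 10.3 CPM (counts scaled by library size) in the wild-type libraries and between 0.382 and 0.588 in the mutant, and PUB4 between 19.0 and 23.6 and between 2.39 and 3.82 CPM. Summed CPM of 4 mesophyll markers was 30507 to 32149 in wild type and 26588 to 32277 in pub2pub4. The sum of 6 root markers was between 0.245 and 1.48 CPM, with 2 of the 6 at 0 in every library. Xylem markers summed to 82.9 to 99.5 CPM in wild type and 68.6 to 89.9 in pub2pub4. Guard cell, epidermis and phloem sums also overlapped between genotypes. Singly, LHCA1, XCP2, KAT1 and ATML1 were lower in pub2pub4 without overlap and GORK was higher, where 26.2% of all tested genes had no overlap. DESeq2 called KAT1 lower, and edgeR called no marker. Wild type 3 stood nearer the mutant than the other wild-type libraries on the first principal component (-17.7, against -31.4 and -37.0, with 45.2% of variance), and on the second pub2pub4 1 and pub2pub4 3 lay apart at 31.8 and -38.8. The sum of 4 shoot meristem and flower markers was 2.99 CPM in wild type 1 and 2.58 CPM in pub2pub4 1, against 0.686 to 1.13 CPM in the other libraries. In leaf RNA of this kind, fewer cells that express a gene and less RNA per cell cannot be told apart.

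HD-Zip proteins are found in plants and join a DNA-binding homeodomain to a leucine zipper, through which a pair of them binds a short palindromic site. Class I proteins act largely in development and in responses to water deficit and abscisic acid, the hormone of drought. ATHB-7 and ATHB-12 are close paralogs, both induced by drought and abscisic acid, and both are known to adjust growth and hormone sensitivity when water is short.

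The windows just upstream of ATHB-7 and ATHB-12 are shown because they hold the same stretch of 22 bases, found in no other window searched. The search for shared runs was chosen after the sequences had been seen. Both are 300 bases long and end at the base before the annotated gene start, read 5′ to 3′ on the strand of the gene from the RefSeq genome TAIR10.1. The ATHB-7 window is chr2:19166968-19167267 and the ATHB-12 window chr3:22915394-22915693, both on the minus strand. Capitals mark the run of 22 bases found in both, and in the ATHB-12 window also 1 match to ACGTG, the core of the abscisic acid response element, on the opposite strand.
ATHB-7: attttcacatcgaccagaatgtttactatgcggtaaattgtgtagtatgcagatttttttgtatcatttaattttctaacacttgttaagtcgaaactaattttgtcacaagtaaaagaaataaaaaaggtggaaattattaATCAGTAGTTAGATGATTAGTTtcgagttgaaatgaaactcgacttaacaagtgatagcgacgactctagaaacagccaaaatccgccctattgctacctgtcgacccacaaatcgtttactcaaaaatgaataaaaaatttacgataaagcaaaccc
ATHB-12: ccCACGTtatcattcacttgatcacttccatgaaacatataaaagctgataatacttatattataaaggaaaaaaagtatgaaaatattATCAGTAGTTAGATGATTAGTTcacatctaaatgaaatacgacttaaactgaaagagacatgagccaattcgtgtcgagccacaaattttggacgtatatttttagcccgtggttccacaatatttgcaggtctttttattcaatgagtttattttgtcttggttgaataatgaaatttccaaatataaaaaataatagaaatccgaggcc

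The shared run lay at -158 to -137 from the ATHB-7 start and at -211 to -190 from the ATHB-12 start. Searched on both strands, it was held by 2 of 27437 windows of protein-coding genes, the ATHB-7 and ATHB-12 windows themselves. Among the 136 pairs that the 17 class I genes form, the next longest run shared on the same strand was 13 bases (ATHB-51 with ATHB-54) and the median was 9. The run holds no match to the motifs searched below.

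Known motifs were searched in the same windows on both strands. ACGTG was found in 4 of the 10 windows, those of ATHB-12, ATHB-5, ATHB-6 and ATHB-40, and in 25.6% of all 27437. The ATHB-40 window held 4 matches, of which a pair on opposite strands overlap at -245 to -240. CAATNATTG, the palindromic site that class I proteins bind in vitro, was in 0 of the 10 and in 1.14% of all windows. CCGAC, the core of the drought and cold response element, was in 0 of the 10 and in 13.9% of all. TTGAC, the core bound by WRKY factors, was in 2 of the 10 (ATHB-20 and ATHB-21) and in 50.4% of all. A longer window of 1000 bases, chosen after the 300-base windows had been read, held ACGTG for 7 of the 10, with 1 match for ATHB-7 and 4 for ATHB-12, and for 54.4% of 27434 genes. In the longer window CCGAC was in 3 of the 10 and 37.45% of all, TTGAC in 9 of the 10 and 88.1% of all, and CAATNATTG in 0 of the 10 and 3.44% of all. These matches are letters in a window whose place depends on the annotated start, and no binding was measured.

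Of the class I genes looked up, ATHB-12 was the nearest to ATHB-7 in coding sequence. Their longest coding sequences, 777 and 708 bases, were identical at 68.5% of alignment columns with gaps counted, and their longest identical run was 21 bases. ATHB-7 was identical to the other members at 45.9% to 49.7% of columns. With gaps counted, the closest pair among the members was ATHB-6 and ATHB-16, at 71.4%, with a longest identical run of 20 bases. Over aligned bases alone, ATHB-7 and ATHB-12 were the closest, at 80.65% against 78.05%. The labels give no read length, so reads shared within such pairs cannot be measured.

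In wild-type leaves the members spanned a wide range of levels. ATHB-6 stood first, at 189 ± 11.1 CPM per kilobase of deposited gene length (SD, n = 3), followed by ATHB-5 at 57.8 ± 3.53, ATHB-16 at 39.9 ± 2.59 and ATHB-1 at 19.1 ± 1.33. ATHB-7 (6.98 ± 3.24), ATHB-13 (6.43 ± 0.251) and ATHB-12 (4.88 ± 1.25) came next, and the ranges of ATHB-7 and ATHB-13 overlapped. Otherwise each of these 7 genes lay clear of the one below it in all 3 wild-type libraries, although ATHB-7 and ATHB-12 also overlapped, with 3.82 to 10.3 and 3.44 to 5.64 CPM per kilobase. ATHB-20 was at 0.119 ± 0.0391 CPM per kilobase, and ATHB-21 and ATHB-40 were at or near 0.

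**Figure D1:**
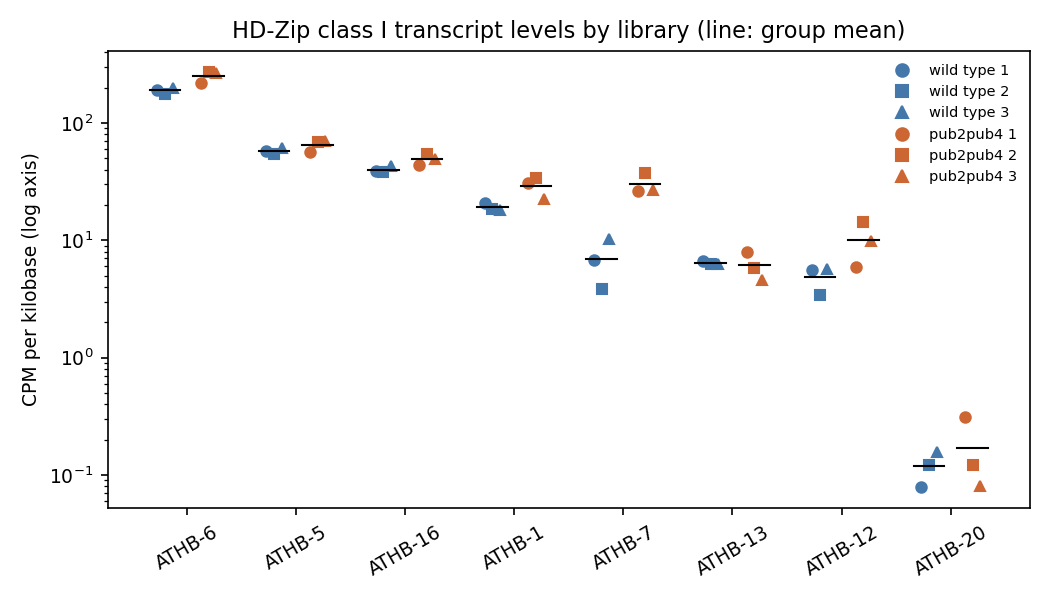
CPM per kilobase of gene length on a log axis for 8 of the 10 members, in order of their wild-type mean, with 1 point per library and a line at each group mean. ATHB-7 lies between 3.82 and 10.3 in wild type, where its range overlaps those of ATHB-13 and ATHB-12, and lies above both genes without overlap in pub2pub4, while ATHB-6 is the most abundant member in both genotypes. ATHB-21 and ATHB-40, with libraries at 0, are not drawn.

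Of the 10 members, 7 had enough counts to be tested, and 2 of these, ATHB-7 and ATHB-6, were called higher in pub2pub4 at an adjusted p under 0.05 by edgeR's quasi-likelihood fit over 19019 genes. Of all tested genes 4.46% were called, 2.49% higher and 1.97% lower. Called lower were 0 members, also by DESeq2 and limma-voom, and 0 were lower at an unadjusted p under 0.05. At that threshold 5 of the 7 were higher, as were 1951 of the 19019 tested genes. For 5 of the 7 (ATHB-7, ATHB-12, ATHB-1, ATHB-6 and ATHB-16) every mutant library lay above every wild-type library, as for 13.4% of all tested genes, while 26.2% of all had no overlap in either direction. The median log2 fold change of the 7 was 0.41, against 0.01 over all tested genes. When a single library was dropped, ATHB-7 stayed called only if that library was wild type 3, and ATHB-6 only if it was pub2pub4 1. Dropping any other library, pub2pub4 3 included, ended both calls.

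ATHB-7 (AT2G46680, chromosome 2, 19165274 to 19166967, minus strand, TAIR10.1, 2 exons) had the largest fold change of the members. Its level was 9.06, 5.07 and 13.7 CPM in wild type 1 to 3, against 34.7, 49.98 and 35.5 CPM in pub2pub4 1 to 3. The groups did not overlap, with wild type 3 the highest of the wild-type libraries and pub2pub4 2 the highest of all. The rise was 4.31-fold, a log2 fold change of 2.11 ± 0.37 (SE). Within wild type the highest library was 2.69 times the lowest, a coefficient of variation of 46.4%, against a median of 8.06% for all tested genes. Over 13 alternatives the log2 fold change lay between 1.81 and 2.498, and with 1 library left out the call held in 1 of 6 fits, that without wild type 3.

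ATHB-12 (AT3G61890, chromosome 3, 22914154 to 22915393, minus strand, 2 exons) had wild-type levels of 5.49, 3.396 and 5.56 CPM and pub2pub4 levels of 5.87, 14.2 and 9.71 CPM. The groups did not overlap, but pub2pub4 1 lay only just above wild type 3. The log2 fold change was 1.04 ± 0.36 (SE), and ATHB-12 was not called. Its spread was larger in the mutant, where the highest library was 2.42 times the lowest, than in wild type, where that ratio was 1.64.

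The proportion of the pair is given as a description only, since it carries the rise of ATHB-7 by which the set was chosen, as do the shares of the summed class I level given after it. ATHB-7 per length was 1.23, 1.11 and 1.83 times ATHB-12 in the wild-type libraries and 4.39, 2.61 and 2.71 times in the mutant. The ratio is taken within each library, so no scaling between libraries enters it. Its mean was 1.39 ± 0.385 in wild type and 3.24 ± 0.996 in pub2pub4 (SD, n = 3 each), and the groups did not overlap. The highest ratio, in pub2pub4 1, came with the lowest ATHB-12 of the mutant libraries.

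**Figure D2:**
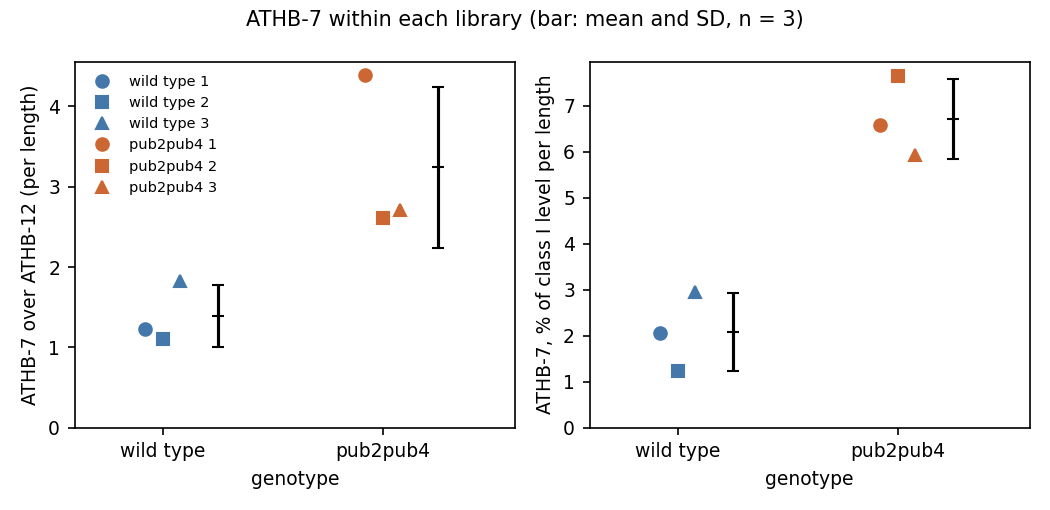
ATHB-7 over ATHB-12 per length (left) and ATHB-7 as a percentage of the summed level per length of 17 class I genes (right), with 1 point per library and a bar for mean and SD. The ratio is 1.11 to 1.83 in wild type and 2.61 to 4.39 in pub2pub4, and the share is 1.25% to 2.95% and 5.93% to 7.65%.

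Summed over the 17 class I genes, the level per length was 329 ± 21.2 CPM per kilobase in wild type and 447 ± 47.9 in pub2pub4 (SD, n = 3 each), 1.36 times as high, without overlap between the groups. ATHB-7 made up 2.09% ± 0.853 of this sum in wild type and 6.72% ± 0.866 in the mutant. ATHB-6 took 57.6% ± 0.372 and 56.4% ± 1.73. The share of ATHB-5 was 17.6% ± 0.282 in wild type and 14.6% ± 0.883 in pub2pub4, and that of ATHB-16 was 12.1% ± 0.365 and 10.9% ± 0.0513, each without overlap. These are shares of a sum that was itself larger in pub2pub4, and they do not show a lower level. Mean CPM was 105 in wild type and 119 in pub2pub4 for ATHB-5, and 60.5 and 74.2 for ATHB-16.

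ATHB-6, ATHB-16, ATHB-5 and ATHB-1 make up the most abundant members. ATHB-6 (AT2G22430, chromosome 2, 9525988 to 9527845, minus strand) binds the phosphatase ABI1 and is known to dampen abscisic acid responses. Its wild-type levels were 293, 271 and 305 CPM, and its pub2pub4 levels 336, 418 and 403 CPM. Every mutant library was above the wild-type libraries, pub2pub4 1 by the smallest margin. The rise was 1.33-fold, a log2 fold change of 0.41 ± 0.09 (SE). With 1 library left out the call held in 1 of 6 fits, that without pub2pub4 1.

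ATHB-1 (AT3G01470, listed in the table as HAT5, chromosome 3, 182396 to 184403, minus strand) is known for roles in leaf cell development and hypocotyl growth. Wild-type libraries held it at 29.6, 26.6 and 26.1 CPM, and pub2pub4 libraries at 44.2, 48.5 and 32.1 CPM. The groups did not overlap, with pub2pub4 3 nearest to wild type, and the log2 fold change of 0.60 ± 0.15 (SE) was not called. Without pub2pub4 3 it was 0.75 ± 0.09 (SE) and was called. In TAIR10.1 the gene overlaps 3 genes on the opposite strand, AT3G01475 over 612 bases, AT3G01035, a long non-coding RNA gene, over 345 bases and MBD9 over 59 bases. MBD9 averaged 34.0 ± 11.7 CPM (SD, n = 3) in wild type, and 36.5 ± 3.10 (SD, n = 3) in pub2pub4. With no word on strand in the counting, reads of ATHB-1 and of these genes cannot be separated with certainty.

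ATHB-16 (AT4G40060), which restrains leaf growth, had 58.9, 57.6 and 65.0 CPM in wild type, against 66.0, 82.1 and 74.4 in pub2pub4. The groups were separate by a narrow margin between wild type 3 and pub2pub4 1, and the log2 fold change of 0.29 ± 0.09 (SE) was not called. ATHB-5 (AT5G65310), a positive regulator of abscisic acid responses in seedlings, had 104, 99.5 and 112 CPM in wild type, against 103, 125 and 128 in the mutant. Its groups overlapped through pub2pub4 1, with a log2 fold change of 0.17 ± 0.09 (SE).

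ATHB-13 (AT1G69780), which shapes cotyledons and leaves in response to sugar, was even across wild type, at 9.40, 8.76 and 8.82 CPM, and ranged in pub2pub4 from 11.1 CPM in replicate 1 through 8.14 in replicate 2 to 6.47 in replicate 3. The mutant libraries lay on both sides of wild type, and the log2 fold change was -0.07 ± 0.18 (SE). Its sign turned to 0.10 without pub2pub4 3.

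**Figure D3:**
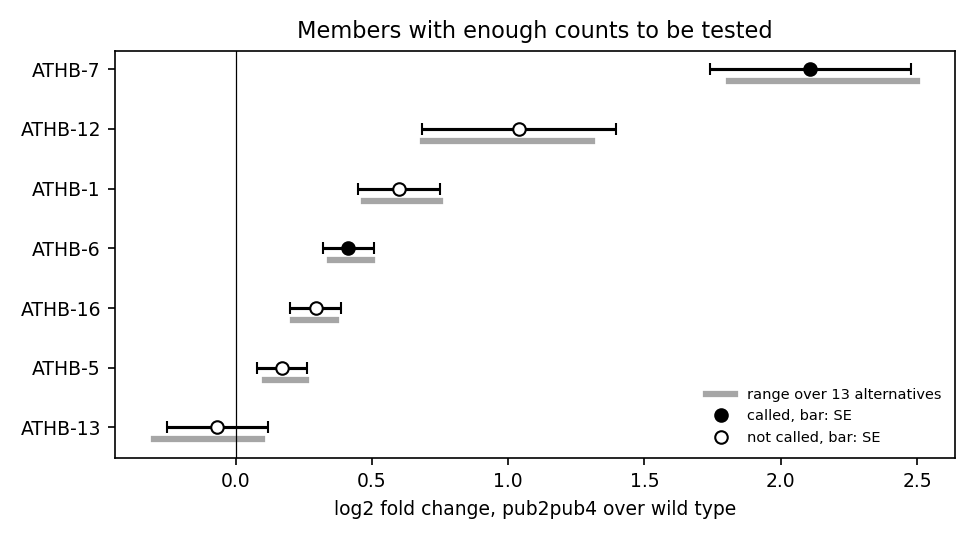
Log2 fold change of pub2pub4 over wild type for the 7 members tested, with the SE as a bar and the range over 13 alternatives in grey below it. Filled points, ATHB-7 at 2.11 and ATHB-6 at 0.41, were called. ATHB-13 is the member whose range crosses 0.

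The other members were too low to be tested. ATHB-20 (AT3G01220), which affects abscisic acid sensitivity of germinating seeds, had 2, 3 and 4 expected counts in wild type and 8, 3 and 2 in pub2pub4, with overlap, and its span overlaps AT3G01210, a gene on the same strand that averaged 12.2 ± 1.37 CPM (SD, n = 3) in wild-type libraries. ATHB-21 (AT2G18550) and ATHB-40 (AT4G36740) act in dormant axillary buds, where they are known to promote abscisic acid synthesis through NCED3. ATHB-21 had 1 count over the 3 wild-type libraries and 4 over the mutant libraries. ATHB-40 had 0 counts in wild type, which allows a level of up to 0.0487 CPM over the group at 3 counts, and 3 counts in all in pub2pub4. At these counts the 3 genes are not ordered among themselves, and the limit given covers counting error only.

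Of the 7 class I genes that are not members, ATHB-3 and ATHB-23 were tested, with log2 fold changes of 0.20 and 0.04, and 0 were called or had an unadjusted p under 0.05. Counts of the other 5 were between 0 and 16 per library. In class II, which is known for shade and auxin responses, 0 of 8 tested genes of 10 were called by edgeR, while 3 were lower at an unadjusted p under 0.05 (HAT1, HAT2 and HAT3, with log2 fold changes of -0.66, -0.42 and -0.50 and adjusted p of 0.133, 0.183 and 0.0981). At that unadjusted threshold 1789 of the 19019 tested genes were lower. ATHB-2 stood at -0.28 (edgeR adjusted p 0.412), and the median of class II was -0.18. In class III, which patterns leaves and vessels, 0 of 5 were called, 0 had an unadjusted p under 0.05, and log2 fold changes ran from -0.17 (ATHB-8) to 0.15 (PHB), with REV at 0.07 and ATHB-15 at -0.04. DESeq2 and limma-voom also called 0 genes in each of these 3 sets.

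The genes whose library pattern was most like that of ATHB-7 were found by the mean absolute difference, over the 6 libraries, between log2(CPM + 0.5) profiles centred on each gene's own mean, among 5662 named genes at 16.6 CPM or more. In order they were PXG3, a caleosin gene, at 0.187, LTI78 (RD29A), a dehydration response gene, at 0.264, KIN2, a cold-regulated gene, at 0.273, P5CSA (P5CS1), for proline synthesis, at 0.294 and NPF3.1, a nitrate transporter family gene, at 0.343. The median difference was 1.06. PXG3 had 25.3, 18.7 and 47.1 CPM in wild type, against 123, 124 and 125 in pub2pub4, so it shares with ATHB-7 the order of the wild-type libraries. ATHB-12, ATHB-5, ATHB-6 and ATHB-16 had that order too, while ATHB-1 and ATHB-13 did not. It is also the order of the wild-type libraries on the first principal component. The measure of likeness includes the difference between genotypes, which served to choose ATHB-7, and all genes in it share the same 6 libraries.

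For ATHB-12 the nearest profiles were NAC018 (0.175), PIF3 (0.186), NIA1 (0.191), PP2CA (0.194) and NFYB2 (0.196), against a median of 0.517. NAC018 encodes a NAC transcription factor of embryo and seed development, PIF3 a light-signalling factor, NIA1 a nitrate reductase, PP2CA a phosphatase of abscisic acid signalling and NFYB2 a subunit of nuclear factor Y. ATHB-12 itself was at a distance of 0.608 from ATHB-7, below 42 closer genes among those ranked. Ranked from ATHB-12, ATHB-7 came 5051st of 5663 genes, farther than the median gene. Profiles were centred but not scaled, so the distance includes the size of the change between genotypes. The log2 fold change was 2.11 for ATHB-7 and 1.04 for ATHB-12. Both genes were lowest in wild type 2 and highest in pub2pub4 2, so the rank does not show that their patterns are unlike in shape. The lists of nearest genes of ATHB-7 and ATHB-12 have 0 genes in common.

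**Figure D4:**
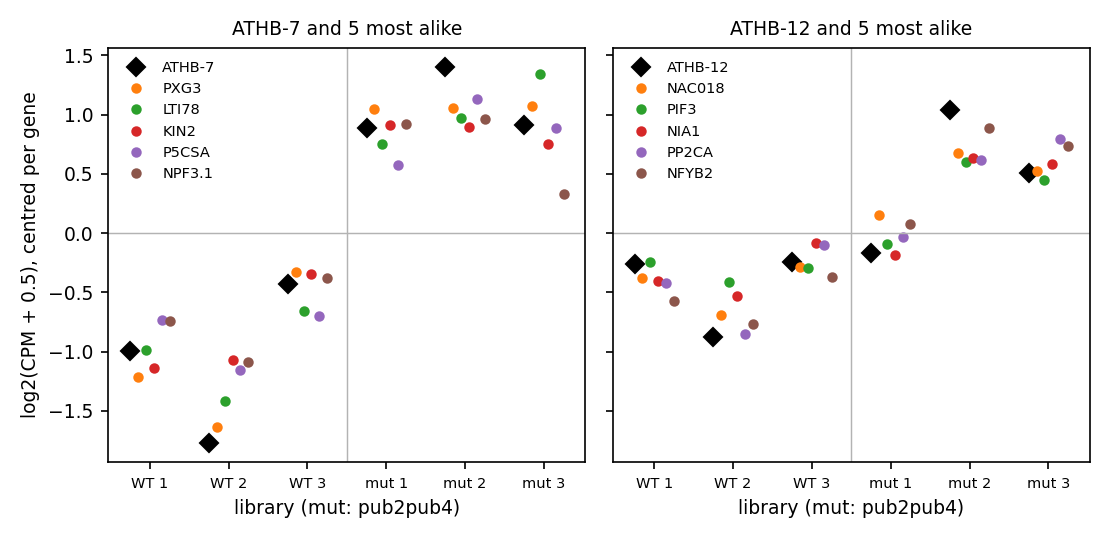
Log2(CPM + 0.5) centred on each gene's mean, by library, for ATHB-7 with its 5 nearest genes (left) and ATHB-12 with its 5 nearest (right). Black diamonds mark ATHB-7 and ATHB-12. On the left all mutant libraries lie above 0 and wild type 2 is lowest for ATHB-7, while on the right pub2pub4 1 lies near 0.

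ATHB-7 and ATHB-12 have been reported to raise transcripts of clade A protein phosphatases 2C, which shut off abscisic acid signalling, and to lower those of the receptors PYL5 and PYL8. ATHB-12 has also been reported to lower GA20OX1, for gibberellin synthesis. Of these 12 genes, 10 were tested, 4 phosphatase genes rose, 0 fell and 6 did not pass, against 2.49% of all tested genes called higher. The median log2 fold change of the 10 was 0.96, against the same 0.01 over all. The list was chosen with earlier results of these data known, so its counts are given as a description only. Whether ATHB-7 or ATHB-12 acts on these genes in these leaves was not tested. HAI2, listed as AIP1, averaged 1.69 ± 0.569 CPM in wild type (SD, n = 3) against 16.5 ± 5.61 in pub2pub4 (SD, n = 3), and its log2 value rose by 3.28 ± 0.36 (SE, edgeR adjusted p 0.0123). ABI2 rose by 1.23 ± 0.18, HAB1 by 1.05 ± 0.18 and HAB2 by 0.35 ± 0.07 (SE, edgeR adjusted p 0.0175, 0.0308 and 0.0420). Leaving out wild type 1 or wild type 2 ended all 4 calls. HAI2 was called in the other 4 of 6 such fits, ABI2 and HAB1 in 3, being lost also without pub2pub4 2, and HAB2 in 1, that without wild type 3. DESeq2 called 7 of the 10, with ABI1, PP2CA and HAI1 added. Over all genes DESeq2 also called more, 752 higher and 708 lower, against 474 and 374 by edgeR.

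The other phosphatases tested had positive fold changes without passing. ABI1, the partner of ATHB-6, had 105, 87.9 and 120 CPM in wild type, against 150, 231 and 241 in pub2pub4, without overlap (log2 0.99 ± 0.21 SE, edgeR adjusted p 0.0562). HAI1 had 4.05, 2.61 and 10.6 CPM in wild type, against 29.1, 70.7 and 58.0 in pub2pub4 (log2 3.18 ± 0.63 SE, edgeR adjusted p 0.0657). Wild type 3 was the highest and wild type 2 the lowest of its wild-type libraries, as for ATHB-7. That order is not particular to them, since ABI1, PP2CA, ATHB-12, ATHB-5, ATHB-6 and ATHB-16 had it too. PP2CA had a log2 fold change of 0.93 ± 0.28 (SE, edgeR adjusted p 0.150). PYL8, PYL5 and GA20OX1 had negative values of -0.19 ± 0.06, -0.30 ± 0.20 and -0.12 ± 0.22 (SE, edgeR adjusted p 0.143, 0.466 and 0.807). Of the 3, PYL8 had groups without overlap, with 67.6, 68.4 and 73.1 CPM in wild type, against 61.8, 59.3 and 62.7 in pub2pub4.

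**Figure D5:**
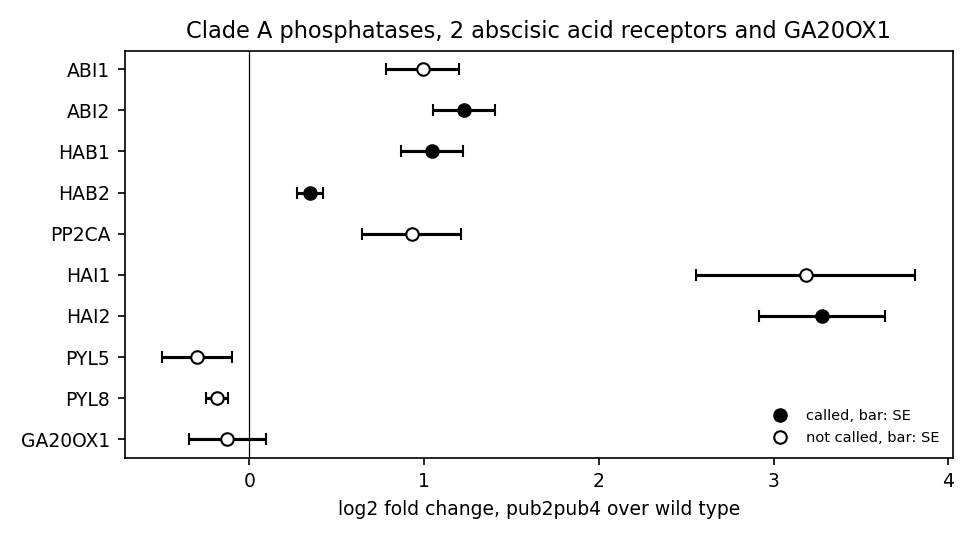
Log2 fold change of pub2pub4 over wild type, with SE, for the 10 tested genes among clade A phosphatases, PYL5, PYL8 and GA20OX1. Filled points (ABI2, HAB1, HAB2 and HAI2) were called. The 7 phosphatase genes lie above 0, and PYL5, PYL8 and GA20OX1 below it.

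In a list of 23 genes for abscisic acid synthesis, breakdown and transcriptional response, 19 were tested, 4 rose, 0 fell and 15 did not pass, where 2.49% of all tested genes were called higher and 1.97% lower. The median log2 fold change of the 19 was 0.28, against 0.01 over all tested genes. Of the 19, 13 had a positive log2 fold change and 6 a negative one. This list too was chosen with earlier results of these data known. The 4 were OST1, a kinase that relays the hormone signal (0.52 ± 0.09), the bZIP factors ABF2 (0.63 ± 0.13) and ABF3 (1.17 ± 0.19), and RD29B, a response gene at 0.161 ± 0.0272 CPM in wild type (SD, n = 3), with 2.64 ± 0.52 (SE, edgeR adjusted p 0.0234, 0.0380, 0.0263 and 0.0331). None of the 4 was called without wild type 1, 2 or 3 or without pub2pub4 2. Without pub2pub4 1, ABF2 and ABF3 were called, and without pub2pub4 3, OST1, ABF3 and RD29B. NCED5 (1.54), RAB18 (1.48), RD22 (0.53) and RD26 (1.44) did not pass, with edgeR adjusted p of 0.0540, 0.0586, 0.0829 and 0.162. RD29B, among the 4 called, had 4, 3 and 3 expected counts in wild type and 19, 33 and 12 in pub2pub4. It passed the filter on low counts only through the mutant libraries, where it is high. The same holds for NCED5, with 5, 6 and 6 expected counts against 14, 15 and 21. DESeq2 called 7 of the 19, with RAB18, RD26 and RD22 added, where over all genes it called 752 higher, against 474 by edgeR. NCED3, the synthesis gene that ATHB-21 and ATHB-40 act on in buds, had 23.9, 28.6 and 32.2 CPM in wild type, against 20.1, 45.7 and 60.4 in the mutant, with overlap.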

How the data were processed

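Messenger RNA libraries of leaf were sequenced on an Illumina HiSeq instrument, per the labels' protocols. The authors deposited expected counts per gene and library and a gene length; 95.1% of values are whole. TopHat2 2.1.0, RSEM 2.1.30 and TAIR10 are named in the submitters' processing notes, with no role stated. Strand setting, annotation release and filters: not given in the sources used here. Expected counts were rounded and tested with edgeR 4.0.16 in R 4.3.3: filterByExpr (minimum count 10, total 15), TMM scaling, a robust quasi-likelihood fit on group, and Benjamini-Hochberg adjustment over 19019 genes, threshold 0.05. The fit was tested on simulated data. Standard errors come from the fold change and F statistic, and CPM are TMM-scaled. P-values measure the spread between these libraries, which may be technical. Replicate pairs of a group differed beyond sampling noise (chi-square per degree of freedom 6.13 to 23.0). Members and gene lists were chosen with earlier results of these data known.

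Beyond the members, the rule named, per list, called genes and up to 4 others with the smallest p, and the 5 nearest profiles of ATHB-7 and ATHB-12. PYL5, GA20OX1, NCED3 and the single cell type markers were added after their values were seen. Positions, windows and coding sequences come from RefSeq TAIR10.1 and were handled with Biopython 1.88; no coordinates are in the deposited table. All 10 member identifiers matched the RefSeq annotation. Alternatives were DESeq2 1.42.0, limma-voom (limma 3.58.1), other scalings and filters, the replicate block and each library left out.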

Additional observations from a re-analysis of the deposited data

How the results depend on the processing

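Over 13 alternatives the 7 members tested kept the sign of their log2 fold change, except ATHB-13, which ranged from -0.30 without pub2pub4 1 to 0.10 without pub2pub4 3. The count of 2 members called higher was 4 by DESeq2 (ATHB-12 and ATHB-1 added). It was 1 by limma-voom (ATHB-7) and 1 with no filter on low counts (ATHB-6), where ATHB-7 had an edgeR adjusted p of 0.0745. With a library left out it ranged from 0 to 1, and was 0 without wild type 1, wild type 2 or pub2pub4 2. The 1 member called was ATHB-7 without wild type 3, ATHB-6 without pub2pub4 1 and ATHB-1 without pub2pub4 3. No alternative called a member lower. With the replicate number as a block 2 members were called, ATHB-6 and ATHB-1, while ATHB-7 was not. Deviations of same-numbered libraries correlated at 0.126, 0.0642 and 0.152, and those of differently numbered libraries at -0.176 to 0.0755. The same-numbered values were all positive, so they give no ground against pairing. Numbers were not taken as pairs because the labels do not say that they pair libraries. Over all genes the block gave 489 higher and 577 lower, against 474 and 374, and DESeq2 gave 752 and 708. With a library left out, calls ranged from 42 to 756 higher and from 44 to 454 lower. Of the 848 genes called, 55.9% were higher; with the block the share was 45.9%, and with library totals alone 49.0%. The causes were not tested. The order of the members in wild type was the same without division by length. Depth limits ATHB-20, ATHB-21 and ATHB-40, with 8 counts or fewer per library.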

Other observations

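ATHB-54, a class I gene outside the member set and noticed after its counts were seen, had 2, 2 and 3 expected counts in wild type and 10, 16 and 11 in pub2pub4, without overlap. It did not pass the filter on low counts. With no filter, its log2 fold change was 2.35 ± 0.53 (SE, edgeR adjusted p 0.0390). These are 7 counts against 37 over 3 libraries each.

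Wild type 2 was lowest among the wild-type libraries for ATHB-7, ATHB-12, ATHB-5, ATHB-6, ATHB-16 and ATHB-13, and pub2pub4 1 was lowest among the mutant libraries for ATHB-7, ATHB-12, ATHB-5, ATHB-6 and ATHB-16. In pub2pub4, ATHB-13 took the opposite course, with its highest level in replicate 1.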
